A study of Mus musculus with 15 samples.

Results

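This account covers 8 mature microRNAs (miRNAs) that are best known from lymphocytes: both arms of miR-150, both arms of miR-342, and the 5p arms of miR-181a, miR-181b, miR-181c and miR-181d. They were chosen by name, each was found as a row of its own, and they make up 8 of the 1205 rows of the deposited miRNA table. Plasma freed of platelets came from male, wild type C57BL/6J mice 24 h after surgery. The surgery was cecal ligation and puncture (CLP), in which the cecum is tied off and pierced so that gut bacteria reach the abdomen, or a sham operation. There were 9 CLP and 6 sham libraries, and strain, sex, genotype and time were the same in both groups. Whether the libraries came from different animals is not stated in the labels, and the p-values rest on variation among libraries that may be technical.

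A miRNA is cut from a hairpin precursor whose 5' and 3' sides, or arms, can each give a mature strand, and the strand loaded into an Argonaute protein is usually the more abundant of the pair. Bases 2 to 8 of the mature strand, the seed, do most of the target pairing. miR-150 is abundant in mature B, T and natural killer cells and restrains the transcription factor Myb. miR-342 is made from an intron of Evl, which encodes an actin regulator, and is found in lymphoid and other blood cells. The miR-181 family is high in thymocytes, where miR-181a tunes T cell receptor signalling, and it is also made in brain, endothelium and other tissues. In bulk plasma, fewer cells of a type, less RNA per cell and less release per cell cannot be told apart.

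The mature sequences are shown 5' to 3' because the results differ between arms of one hairpin and between members of one seed family. Sequences are from RefSeq (GRCm38.p6) and matched 7 of the 8 members by name, and capitals mark the seed.
miR-150-3p: cUGGUACAggccugggggauag
miR-342-3p: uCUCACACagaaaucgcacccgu
miR-342-5p: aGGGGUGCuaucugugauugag
miR-181a-5p: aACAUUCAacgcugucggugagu
miR-181b-5p: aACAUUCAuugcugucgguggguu
miR-181c-5p: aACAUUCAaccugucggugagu
miR-181d-5p: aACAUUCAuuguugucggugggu
The 4 miR-181 members share 1 seed, which no other miRNA of the table with a RefSeq sequence had. The seeds of miR-150-3p, miR-342-3p and miR-342-5p were each found in no other such miRNA. Counted from the 5' end, miR-181b-5p differed from miR-181a-5p by A9U, C10U and A21G and carries 1 more base at its end. miR-181d-5p differed from miR-181b-5p by C12U alone over the 23 positions compared. miR-181c-5p equals miR-181a-5p with the G at position 11 removed. A count that is not whole arises where a read is divided between miRNAs. The counts of miR-181b-5p and miR-181d-5p were not whole numbers in 5 of 15 libraries, the same 5 libraries for both, so their values are uncertain by an unmeasured amount.

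The miR-342 hairpin is shown whole, with both mature arms in capitals, the 5p arm first.
Mir342: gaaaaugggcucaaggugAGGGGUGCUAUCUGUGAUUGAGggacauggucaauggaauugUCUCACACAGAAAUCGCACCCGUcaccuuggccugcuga
It lies on chromosome 12 from 108658620 to 108658718 (plus strand, GRCm38), in an intron of Evl and on the same strand. The miR-150 precursor, on chromosome 7 from 45121757 to 45121821, overlaps no annotated gene other than its own. miR-181a-5p and miR-181b-5p are each made from a pair of loci. Mir181a-1 and Mir181b-1 lie together on chromosome 1 (137966455 to 137966541 and 137966639 to 137966718), in an exon of the noncoding RNA gene A430106G13Rik. Mir181a-2 and Mir181b-2 lie on chromosome 2 (38852735 to 38852810 and 38853830 to 38853918), antisense to an intron of Nr6a1. Mir181c (84178873 to 84178961) and Mir181d (84178716 to 84178787) lie on the minus strand of chromosome 8, within an intron of Nanos3. GENCODE M21 is the source of these positions and genes.

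Library totals ran from 5274676 to 13576482 reads assigned to miRNAs. All 8 members passed the abundance filter, which 426 of the 1205 rows passed. Their lowest count in any library was 41 reads, for miR-342-5p. Values are CPM, reads scaled to a common library size as adjusted by TMM, a method that evens out differences in composition. Every mature member is 22 to 24 bases long where its sequence is given, and CPM is not corrected for length or for the preference of adapter ligation for some ends, so a place or share among miRNAs given below describes reads in these libraries and not amounts of RNA.

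Between CLP and sham plasma, 4 of the 8 members differed by edgeR's quasi-likelihood test at a Benjamini-Hochberg adjusted p under 0.05. Over all 426 tested miRNAs 47.2% were called. Those lower in CLP were miR-342-3p, miR-150-3p and miR-150-5p, 3 of 8 where 21.8% of all tested miRNAs were called lower. The 1 member called higher was miR-181a-5p, where 25.4% of all tested were called higher. A count of 4 of 8 is near that share, and nothing particular to the 8 is read from it. The median log2 fold change was -0.02 over the 8 and 0.11 over all tested. In none of the 8 did the CLP and sham ranges fail to overlap, whereas 19.7% of all tested miRNAs had separate ranges.

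**Figure D1:**
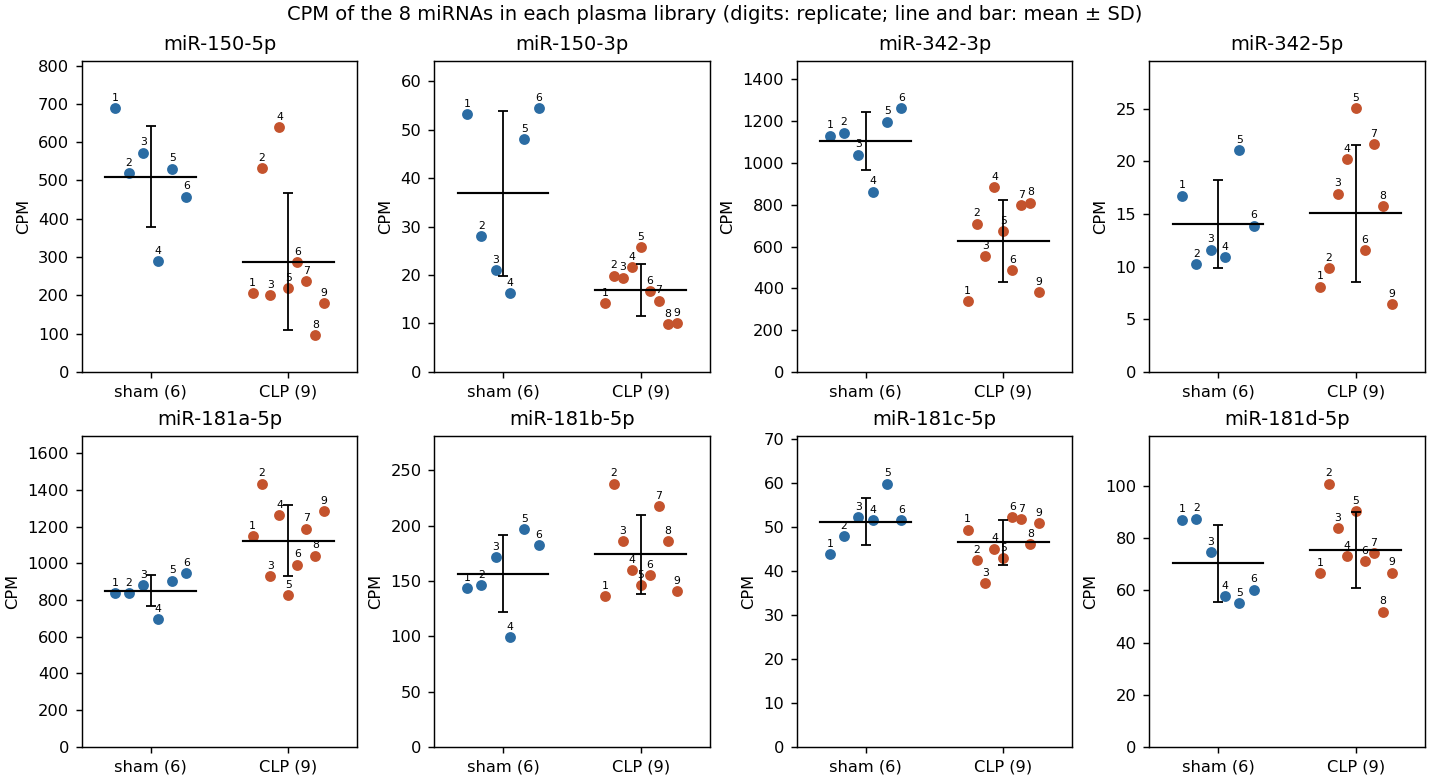
CPM of each of the 8 miRNAs (vertical axis, from 0) in the 6 sham and 9 CLP libraries, with the replicate number above each point and the mean ± SD drawn over each group. miR-342-3p and miR-150-5p sit lower in most CLP libraries, miR-181a-5p sits higher in 7 of 9, and the other miR-181 members overlap broadly.

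mmu-miR-342-3p, the arm of the Evl hairpin with more reads, gave the steadiest difference of the 8. In sham it ranged from 863 CPM in sham 4 through a median of 1138 to 1261 in sham 6. In CLP it ranged from 337 CPM in CLP 1 through a median of 673 to 884 in CLP 4. Only CLP 4 reached into the sham range, and the other 8 CLP libraries all had less than any sham library. The sham mean was 1106 ± 140 CPM (SD, n = 6) and the CLP mean 626 ± 196 (n = 9), and its place by mean CPM among the 426 went from 49 to 65. The log2 fold change was -0.82 ± 0.21 (SE; edgeR adjusted p = 0.00360), with a 95% interval from -1.27 to -0.38. It stayed between -0.95 and -0.76 when any 1 library was left out, with adjusted p no higher than 0.00886.

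The other strand of the same hairpin, mmu-miR-342-5p, is scarce. It ranged from 10.3 CPM through a median of 12.8 to 21.1 in sham, and from 6.46 in CLP 9 through a median of 15.7 to 25.0 in CLP 5. CLP libraries were found above, within and below the sham range. Its log2 fold change was 0.10 ± 0.29 (edgeR adjusted p = 0.801), with a 95% interval from -0.52 to 0.72, and its sign changed with the setting.

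The arms of miR-342 were therefore set against each other within each library, a comparison that library scaling cannot move. The log2 ratio of miR-342-3p to miR-342-5p ranged from 5.82 through a median of 6.39 to 6.79 in sham and from 4.75 in CLP 5 through a median of 5.40 to 6.16 in CLP 2. In 7 of 9 CLP libraries the ratio lay below every sham library, and CLP 2 and CLP 9 reached into the sham range. It averaged 6.33 ± 0.34 over sham (SD, n = 6) and 5.43 ± 0.43 over CLP (n = 9), so a geometric mean of 80.3 reads of the 3p arm per 5p read in sham became 43.2 in CLP. The difference was -0.89 (exact two-sided permutation p = 0.00180, adjusted over 7 ratios 0.00420), with a 95% interval from -1.35 to -0.44 by inversion of the same test. It lay between -1.0 and -0.80 on leaving out 1 library. The ratio holds miR-342-3p, a member called lower in the same libraries, so it is not evidence apart from that call. How often the arms of other hairpins shifted was not computed.

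mmu-miR-150-5p, the main strand of the miR-150 hairpin, was lower in CLP but unevenly so. Sham libraries ranged from 289 CPM in sham 4 through a median of 525 to 688 in sham 1. CLP libraries ranged from 96.2 CPM in CLP 8 through a median of 218 to 639 in CLP 4. CLP 2 and CLP 4, at 532 and 639 CPM, stood inside the sham range, and each of the other 7 CLP libraries had less than any sham library. Mean levels were 510 ± 132 CPM (SD, n = 6) for sham and 288 ± 178 (n = 9) for CLP. The log2 fold change was -0.82 ± 0.33 (edgeR adjusted p = 0.0480), about the same size as that of miR-342-3p but with a wider 95% interval, from -1.51 to -0.13. The call is marginal: it held in 9 of 15 fits with 1 library left out, at adjusted p from 0.00450 without CLP 4 to 0.0712 without sham 5, and it was lost without sham 1, 2, 3 or 5 or without CLP 1 or 7.

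Its partner strand mmu-miR-150-3p fell as well. It ranged from 16.2 CPM through a median of 38.1 to 54.4 in sham and from 9.81 through a median of 16.7 to 25.7 in CLP. The sham libraries were spread wide: sham 1, 5 and 6 held 48.0 to 54.4 CPM and sham 2, 3 and 4 held 16.2 to 28.1. The CLP value was below all of these in 4 of 9 libraries. Mean levels were 36.8 ± 17.0 CPM (SD, n = 6) for sham and 16.9 ± 5.30 (n = 9) for CLP, a log2 fold change of -1.12 ± 0.28 (edgeR adjusted p = 0.00320) that passed on leaving out any 1 library. miR-150-3p is the member richest in G and C among those with a sequence, at 63.6%, and once a trend of each library with GC content was removed its change was -0.64 ± 0.25 (edgeR adjusted p = 0.0462). With an index of red cell RNA as a covariate its change was -0.82 and did not pass (edgeR adjusted p = 0.0673). The index itself was lower on average in CLP, so that fit separates it from surgery only in part.

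Unlike the miR-342 arms, the miR-150 arms showed no detectable shift against each other. The log2 ratio of miR-150-5p to miR-150-3p was 3.89 ± 0.60 over sham (SD, n = 6) and 3.94 ± 0.62 over CLP (n = 9), which differ by 0.05 (exact permutation p = 0.876, adjusted 0.876) with a 95% interval from -0.65 to 0.76. That interval holds shifts nearly as large as that seen for miR-342, and the difference between the shifts of the hairpins was not tested. Within the CLP libraries the arms of miR-150 gave a Pearson r of 0.66 (permutation p = 0.0508, adjusted 0.135) and a Spearman rho of 0.70 (permutation p = 0.0423, adjusted 0.169), and r was 0.61 without CLP 2 and CLP 4. Within sham r was 0.59 (exact permutation p = 0.217, adjusted 0.347) and rho 0.26 (0.658, adjusted 0.752), and the relation rests on sham 1 and sham 4, without which r was -0.78. For the miR-342 arms r was 0.77 in CLP (permutation p = 0.0177, adjusted 0.0707; rho = 0.62, permutation p = 0.0847, adjusted 0.226) and 0.40 without CLP 1 and CLP 9. The adjustment was over 8 relations, 4 pairs in each group, of which 0 passed.

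Among the miR-181 family only mmu-miR-181a-5p passed the test, and only just. It ranged from 697 CPM in sham 4 through a median of 859 to 946 in sham 6, and from 827 in CLP 5 through a median of 1149 to 1434 in CLP 2. In 7 of 9 CLP libraries it lay above every sham library, and CLP 3 and CLP 5 lay inside the sham range. Mean levels were 851 ± 86.1 CPM for sham (SD, n = 6) and 1123 ± 192 for CLP (n = 9), a log2 fold change of 0.40 ± 0.16 (edgeR adjusted p = 0.0465). The call was lost whichever 1 of the 15 libraries was left out (adjusted p from 0.0571 to 0.214), and scaling by library size alone, which shifts the median of all tested miRNAs by -0.23, left a log2 fold change of 0.18 (adjusted p = 0.422).

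For mmu-miR-181b-5p, made beside miR-181a-5p at both of its loci, the range was 99.7 to 197 CPM in sham and 137 to 238 in CLP, with medians of 159 and 160. Its log2 fold change was 0.15 ± 0.18 (edgeR adjusted p = 0.520; 95% interval -0.23 to 0.54). The chromosome 8 pair gave no call in this fit. mmu-miR-181c-5p ranged from 43.8 to 59.8 CPM in sham and from 37.2 to 52.2 in CLP (-0.14 ± 0.14, edgeR adjusted p = 0.446; 95% interval -0.44 to 0.16), and mmu-miR-181d-5p from 55.3 to 87.6 and from 51.8 to 101 (0.10 ± 0.18, 0.671; -0.27 to 0.47). Each of these intervals excludes a change of 1 on the log2 scale in either direction. The change of miR-181c-5p ran from -0.26 without sham 1 to -0.08 without sham 5, and with the GC trend removed it was -0.36 and passed (edgeR adjusted p = 0.0376).

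**Figure D2:**
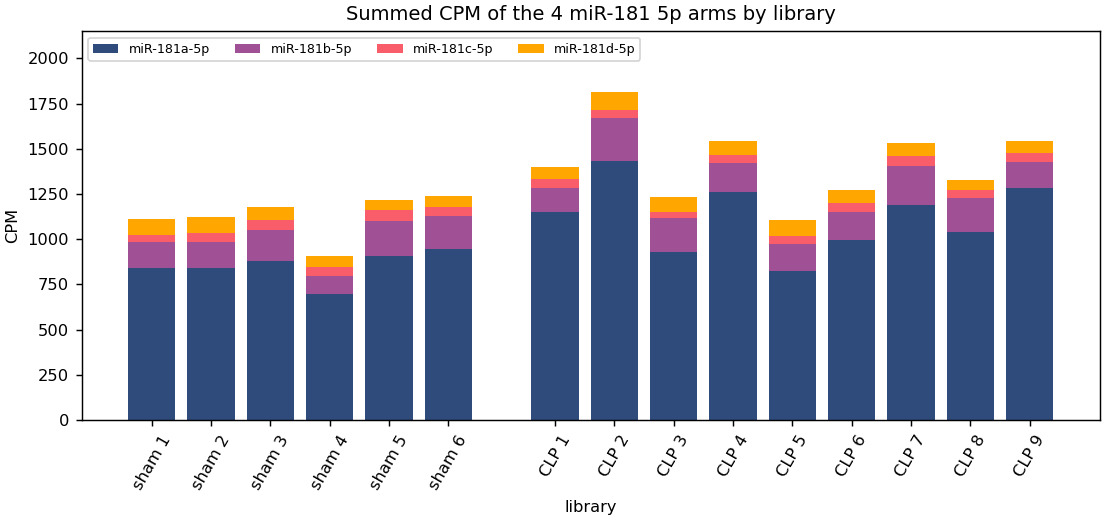
Summed CPM of the 4 miR-181 5p arms (vertical axis) in each sham and CLP library (horizontal axis), with each member as a coloured part of the bar. miR-181a-5p is the largest part of every bar, and CLP 2 has the tallest bar, at 1816 CPM.

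The 4 members together held 1129 ± 121 CPM over sham (SD, n = 6) and 1419 ± 213 over CLP (n = 9). The part of miR-181a-5p was 75.4% ± 0.998 in sham and 78.9% ± 3.002 in CLP, and that of miR-181c-5p 4.57% ± 0.64 and 3.32% ± 0.53. These shares are a description of the summed values and were not tested. Within sham miR-181a-5p and miR-181b-5p gave r = 0.97 (exact permutation p = 0.00694, adjusted 0.0556; rho = 0.94, exact permutation p = 0.0167, adjusted 0.133), and within CLP r = 0.34 (permutation p = 0.371, adjusted 0.424; rho = 0.22, permutation p = 0.581, adjusted 0.752). Without the 2 libraries farthest from the median of miR-181a-5p, r was 0.996 in sham (sham 4 and sham 6 left out). In CLP it was -0.30 (CLP 2 and CLP 5 left out). The difference between the groups was not tested. Ratios within loci did not pass. The log2 ratio of miR-181a-5p to miR-181b-5p differed by 0.23 (exact permutation p = 0.139, adjusted 0.243; 95% interval -0.08 to 0.54) and that of miR-181c-5p to miR-181d-5p by -0.24 (exact permutation p = 0.270, adjusted 0.378; -0.71 to 0.22).

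Mature miR-181a-5p reads cannot be assigned to a locus, but the 3p arms of its hairpins differ in sequence. miR-181a-1-3p, from chromosome 1, was read in all 15 libraries, with 26 to 135 reads in sham and 68 to 280 in CLP. miR-181a-2-3p, from chromosome 2, had 0 reads in all 6 sham libraries, where 3 reads, the limit that a count of 0 allows, is 0.280 to 0.569 CPM of the unscaled total, and up to 12 reads in 5 CLP libraries. Of the 6 possible 3p arms, 3 passed the abundance filter and 0 passed the test. The log2 fold changes were 0.73 ± 0.41 for miR-181a-1-3p (edgeR adjusted p = 0.140), 0.78 ± 0.45 for miR-181b-1-3p (0.163) and -0.08 ± 0.21 for miR-181c-3p (0.777).

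**Figure D3:**
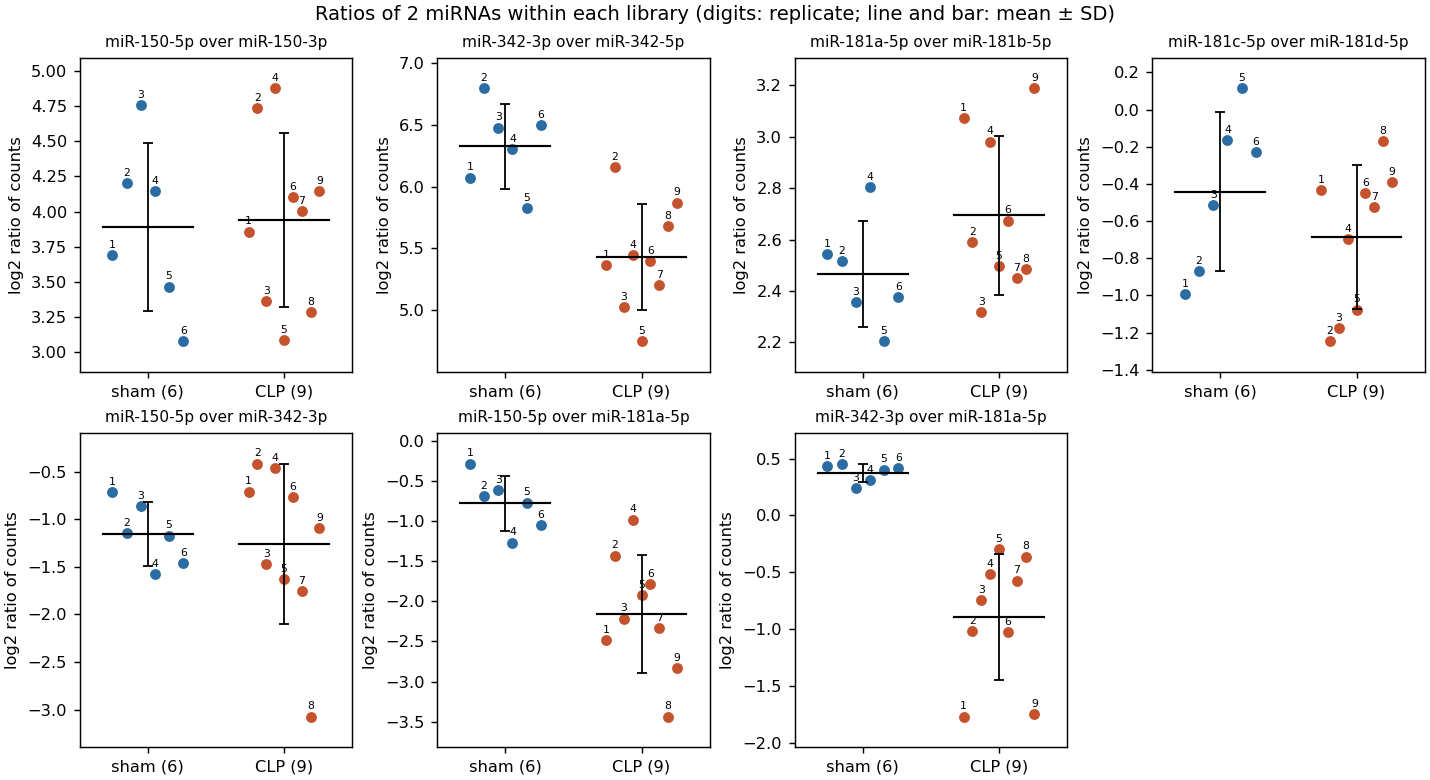
Log2 ratio of the counts of 2 miRNAs (vertical axis, pseudocount 0.5) within each of the 6 sham and 9 CLP libraries, with replicate numbers and the mean ± SD of each group. The ratio of miR-342-3p to miR-181a-5p is above 0 in all 6 sham libraries and below 0 in all 9 CLP libraries.

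Set against each other, miR-342-3p and miR-181a-5p separated the groups. Their log2 ratio ranged from 0.24 through a median of 0.41 to 0.45 in sham and from -1.77 in CLP 1 through a median of -0.75 to -0.30 in CLP 5. All 6 sham libraries had more reads of miR-342-3p and all 9 CLP libraries more of miR-181a-5p. Among single tested miRNAs, 19.7% had separate ranges, and no such share was computed for ratios. This ratio joins a member called lower to the member called higher in the same libraries, so it is not evidence apart from those calls. It averaged 0.37 ± 0.08 over sham (SD, n = 6), the tightest of the 7 ratios there, and -0.89 ± 0.55 over CLP (n = 9). The difference was -1.27 (95% interval -1.77 to -0.78; exact permutation p = 0.0002, the smallest that 5005 splits can give, adjusted 0.00140).

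miR-150-5p also shifted against miR-181a-5p, in a ratio that likewise joins a lower call to the higher call. That log2 ratio averaged -0.78 ± 0.34 over sham (SD, n = 6) and -2.16 ± 0.74 over CLP (n = 9), with 8 of 9 CLP libraries below every sham library and CLP 4, at -0.98, inside the range. The difference was -1.38 (95% interval -2.08 to -0.68; exact permutation p = 0.00160, adjusted 0.00420). Between miR-150-5p and miR-342-3p, which had nearly equal mean falls, the log2 ratio was -1.16 ± 0.33 in sham and -1.26 ± 0.84 in CLP (difference -0.11, exact permutation p = 0.8, adjusted 0.876; 95% interval -0.90 to 0.63). CLP 8 held the lowest of these ratios, at -3.07, and CLP 2 the highest, at -0.42, and without CLP 8 the difference was 0.12. The libraries lowest in miR-150-5p and in miR-342-3p were thus not the same: CLP 8 was lowest for the former, while for the latter it held 810 CPM, more than any CLP library but CLP 4, and CLP 1 and CLP 9 were lowest. Within CLP the 2 gave r = 0.27 (permutation p = 0.492, adjusted 0.492), and -0.31 without CLP 2 and CLP 4. Within sham r was 0.65 (exact permutation p = 0.192, adjusted 0.347), and -0.90 without sham 1 and sham 4.

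Across the 15 libraries, after the mean of each group was subtracted, the tested miRNA nearest in pattern to miR-181a-5p was miR-181a-1-3p, the other arm of its own hairpin (Spearman rho = 0.81), ahead of miR-450a-1-3p (0.72) and miR-340-3p (0.65). Nearest to miR-342-3p were miR-146a-5p (rho = 0.86), a feedback regulator of Toll-like receptor signalling, miR-191-5p (0.79) and miR-215-3p (0.75), and miR-181b-5p came at place 28 (0.58) and its own partner miR-342-5p at place 31 (0.58). Nearest to miR-150-5p were the scarce miR-7043-3p (rho = 0.69), miR-363-3p (0.67) and miR-142a-5p (0.64), which blood cells make, and the other members nearest to it were miR-181d-5p at place 13 (0.53), miR-150-3p at place 15 (0.52), miR-181a-5p and miR-181b-5p at places 32 and 34, and miR-342-3p at place 58 (0.34). All values of a library share its depth and scaling, and these correlations are descriptions.

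Other lymphocyte-linked miRNAs were called in both directions. Of 12 listed, 6 were called higher in CLP and 1 lower, with a median log2 fold change of 0.70, against 25.4% called higher and 21.8% called lower over all tested. The list was chosen with earlier results of these data known, so its counts are descriptions and no test of the list. miR-155-5p, induced in activated lymphocytes and macrophages, was called higher (2.04 ± 0.37, edgeR adjusted p = 0.000188). It was scarce, with means of 2.22 CPM in sham and 9.13 in CLP. Also called higher were miR-20a-5p and miR-17-5p of the miR-17-92 cluster, the abundant miR-29a-3p (10778 and 29844 CPM), miR-29c-3p and miR-26b-5p. The member called lower was miR-26a-5p (-0.83 ± 0.20, edgeR adjusted p = 0.00250). Not called were miR-142a-5p, made in all blood cell lineages (0.45 ± 0.19, edgeR adjusted p = 0.0627), and miR-142a-3p (0.38 ± 0.57, 0.611). Also without a call, but with a negative change, were miR-29b-3p (-0.58 ± 0.25, edgeR adjusted p = 0.0627), miR-92a-3p (-0.30 ± 0.22, 0.254) and miR-146a-5p (-0.15 ± 0.28, 0.692).

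**Figure D4:**
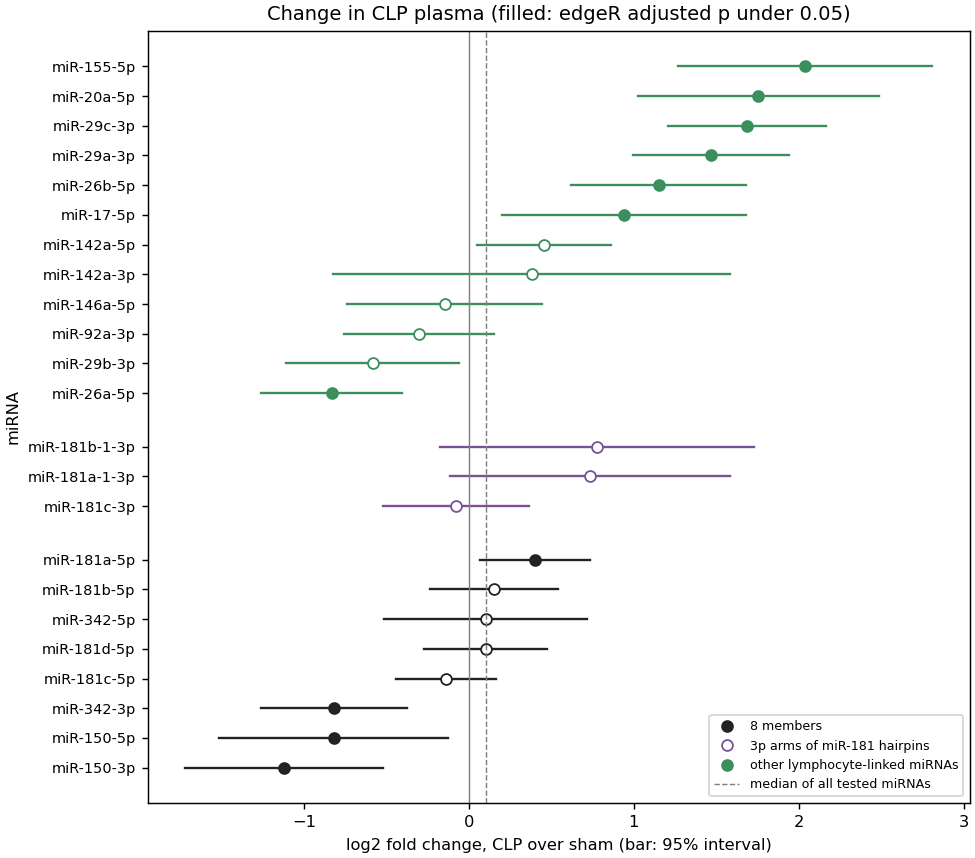
Log2 fold change of CLP over sham (horizontal axis) with its 95% interval for the 8 members, the 3 tested 3p arms of miR-181 hairpins and 12 other lymphocyte-linked miRNAs; filled points passed the test and the dashed line is the median of all tested miRNAs, 0.11. The 3 lowest members are miR-150-3p, miR-150-5p and miR-342-3p, and 8 of the 12 other lymphocyte-linked miRNAs lie to the right of 0.

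Some markers of other sources differed between the groups. These lists too were chosen with earlier results of these data known, and their counts are descriptions. Over all tested miRNAs 25.4% were called higher and 21.8% lower. Of 3 myeloid miRNAs 2 were called higher in CLP, and the summed level of the 3 was 266 to 360 CPM in sham and 339 to 790 in CLP. Those called were miR-223-5p (means of 22.5 CPM in sham and 154 in CLP) and miR-147-3p (0.916 and 5.71). The most abundant, miR-223-3p (290 and 371), was not called (0.36 ± 0.21, edgeR adjusted p = 0.157). Of 6 tested red cell rows 1 was called lower, miR-451a. The summed level of all 7 red cell rows was 157344 to 454612 CPM in sham and 81483 to 377758 in CLP, where CLP 5 was highest. Most of it was the row of miR-486a-5p and miR-486b-5p, with means of 255786 CPM in sham and 157244 in CLP. That row (edgeR adjusted p = 0.0867) and miR-144-3p (-0.10 ± 0.38, 0.838) were not called. Of 5 platelet and endothelial rows 1 was called higher and 2 lower, with summed levels of 44826 to 61759 CPM in sham and 24991 to 34403 in CLP. The sham sum was mostly miR-191-5p, which was called lower, with means of 37342 CPM in sham and 5450 in CLP. The other row called lower was that of miR-199a-3p and miR-199b-3p (750 and 494). miR-24-3p, the row called higher, had 11004 and 19713. miR-126a-3p (-0.42 ± 0.22, edgeR adjusted p = 0.129) and miR-126a-5p (-0.45 ± 0.19, 0.0639) were not called. Of 3 striated muscle miRNAs 2 were called higher (409 to 6686 CPM in sham, 4975 to 40576 in CLP). Of 3 hepatocyte miRNAs 0 passed, with 22481 to 46068 CPM in sham and 14190 to 146590 in CLP. The sham sum was mostly miR-192-5p, with means of 24201 CPM in sham and 35357 in CLP. miR-122-5p had 5995 and 15721 (1.39 ± 0.76, edgeR adjusted p = 0.139), with 3 CLP libraries above and 3 below every sham library. CLP 1 had the highest hepatocyte sum, the highest myeloid sum and the least miR-342-3p, and a relation over libraries was not tested. No row of these lists was at 0 in every library. With the log2 ratio of miR-451a to miR-23a-3p, an index of red cell RNA, as a covariate, miR-342-3p changed by -0.83 (edgeR adjusted p = 0.0190) and miR-150-5p by -1.06 (0.0461), while miR-150-3p (-0.82, 0.0673) and miR-181a-5p (0.25, 0.323) did not pass. That index was itself lower in CLP, at -1.41 ± 0.99 (SD, n = 9) against -0.44 ± 0.67 in sham (n = 6). The ranges of the index overlapped, at -1.28 to 0.24 in sham and -2.53 to 0.72 in CLP. Surgery and the index are thus linked in part, and a fit with both separates them only in part. The part of the other markers in these results was not tested.

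**Figure D5:**
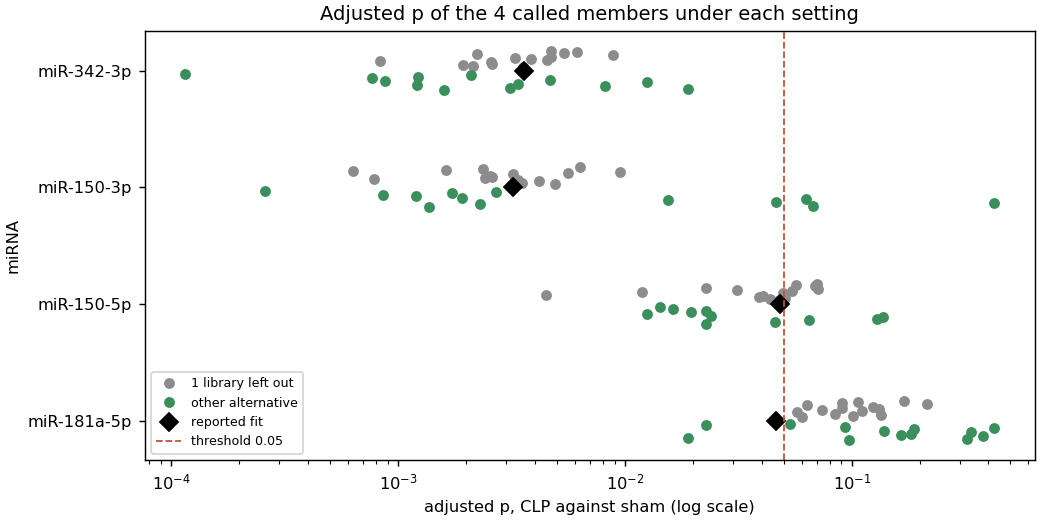
Adjusted p (horizontal log axis) of the 4 called members in the reported fit (diamonds), with 1 library left out (grey) and under the other alternatives (green); the dashed line is the threshold of 0.05. All points of miR-342-3p lie left of the line, and all grey points of miR-181a-5p lie right of it.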

How the data were processed

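The members and lists were chosen with earlier results of these data known. The deposited table holds expected counts of reads per mature miRNA, not scaled for depth, with reads shared between miRNAs divided; its name gives the exceRpt pipeline, and mm10 is the genome build that the submitters' processing notes name. For the aligner, trimming and miRNA release, the version is not given in the sources used here. Per the labels' protocols, adapters were ligated to both ends and libraries pooled at equal molarity, so counts are relative. Each of the 15 columns matched 1 library by its label.

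Expected counts were rounded, and rows kept by filterByExpr were scaled by TMM and fitted over all 426 rows with edgeR 4.0.16 in R 4.3.3 (robust quasi-likelihood F test, two-sided, Benjamini-Hochberg, threshold 0.05). SE is the size of the log2 fold change over the square root of F. Ratios used counts plus 0.5 and exact two-sided permutation tests over 5005 splits, adjusted over 7 ratios; correlations within a group used 100000 resamples for CLP and all orders for sham. The 3 miRNAs nearest to miR-150-5p, miR-342-3p and miR-181a-5p were named by the highest Spearman rho of log2 CPM (prior count 2) after removal of group means. Alternatives were DESeq2 1.42.0, limma 3.58.1 (voom), other scalings and filters, a GC trend removed by loess (373 tested rows, 87.6%, had a RefSeq sequence; miR-150-5p was not among them), the replicate number as a block, a red cell index, removal of red cell miRNAs, and leaving out libraries. No 2 libraries of a group were copies (chi-square per degree of freedom at least 284). Scripts were tested on simulated data. Intervals of counting error were not computed.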

Additional observations from a re-analysis of the deposited data

Results flagged for a closer look

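One value stood apart from its group by Dixon's test at the 95% level, out of 30 groups of values checked, and chance flags about 1 in 20. The log2 ratio of miR-150-5p to miR-342-3p was -3.07 in CLP 8, with a gap to its nearest neighbour that was 0.495 of the whole range of the 9 CLP libraries. CLP 8 held the least miR-150-5p of the 15 libraries, 96.2 CPM, beside 810 CPM of miR-342-3p.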

How the results depend on the processing

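The fall of miR-342-3p kept its direction and its call under all 28 alternatives. miR-150-3p kept its direction in all 28 and lost its call in 3, with the replicate block (-0.85, adjusted p = 0.0627), with that block and the GC trend removed (-0.28, 0.424) and with the red cell index (-0.82, 0.0673). miR-150-5p lost its call in 9 of 26 (it had no GC value) and miR-181a-5p in 26 of 28, keeping it with limma voom (0.41, 0.0227) and without CLP 1 and CLP 5 together (0.43, 0.0191). miR-181c-5p passed with the GC trend removed (-0.36, 0.0376). The cause was not tested. Of all tested miRNAs, 307 were called with no filter, which tests more rows, against 201, and 184 to 213 with 1 library left out; scaling by library size called 90 higher and 126 lower, against 108 and 93.

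Of the 4 members without a call, miR-181b-5p, miR-181d-5p and miR-342-5p changed sign under some alternatives, and miR-181c-5p stayed negative in all 28. With library size scaling the changes were -0.077 for miR-181b-5p, -0.13 for miR-181d-5p and -0.12 for miR-342-5p; with the GC trend removed -0.057 and -0.19 for miR-181b-5p and miR-181d-5p, and with the replicate block too -0.062 and -0.057; with a filter of 10 CPM -0.041 for miR-181d-5p and -0.030 for miR-342-5p, and with the replicate block alone -0.00077 for miR-342-5p. On leaving out 1 library they ran from -0.019 to 0.23, from -0.042 to 0.14 and from -0.087 to 0.25 for miR-181b-5p, miR-181d-5p and miR-342-5p.

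Replicate numbers did not pair the libraries: same-numbered libraries correlated between -0.17 and 0.02 over miRNAs, 0 of 6 over 0.1. With the numbers as a block, 152 miRNAs were called over 12 libraries, 179 without it, and miR-342-3p was at -0.98 (adjusted p = 0.0126). The blocked ratio test has a smallest p of 0.0312, and the 3 ratios that differed were not called: miR-342-3p to miR-342-5p -0.97, miR-150-5p to miR-181a-5p -1.02 and miR-342-3p to miR-181a-5p -1.27 (adjusted p = 0.109 each). The blocked miR-150-5p to miR-342-3p ratio was 0.25. On leaving out 1 library, that ratio ran from -0.21 to 0.12 and miR-150-5p to miR-150-3p from -0.11 to 0.22, and each of the 3 ratios that differed passed 15 of 15 times.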

Other observations

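The star strand of miR-181d, miR-181d-3p, was too scarce for the test. It had 3 to 48 reads in sham and 0 to 31 in CLP, or 0.502 to 4.63 and 0 to 2.73 CPM, with the highest CLP value in CLP 5. miR-181b-2-3p had 1 read in each of CLP 4 and CLP 9 and 0 in the other libraries.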
